A study of Mus musculus with 3 samples.

Results

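The family of miR-15, miR-16 and miR-195 was followed in 3 mouse liver libraries as 7 of the 1908 mature microRNAs listed in the deposited counts. The members were chosen by name and sequence and not by their values, although earlier results of these data were known. They are 4 arms from the 5′ side of a hairpin (5p arms) that share a seed, mmu-miR-16-5p, mmu-miR-15a-5p, mmu-miR-15b-5p and mmu-miR-195a-5p, and 3 arms from the 3′ side (3p arms), mmu-miR-15b-3p, mmu-miR-16-1-3p and mmu-miR-16-2-3p. Both miR-16 3p arms are included because they tell the pair of miR-16 hairpins apart, which the shared 5p arm cannot do. All 7 members had reads in each of the 3 libraries.

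Male C57BL/6J mice of 8 to 10 weeks were used in all groups, with no engineered allele or drug treatment named other than the anesthetic. In the Sham group the abdomen was opened without occlusion of vessels. In the warm ischemia (WI) group the vessels and bile duct serving the left and median lobes were clamped and liver was taken at the end of the clamping. In the ischemia-reperfusion (IR) group the clamp was removed and liver was taken later. The Sham livers were taken after a wait as long as the clamping, so that IR livers were taken later after surgery than both other groups, and reperfusion and time since surgery cannot be told apart. Each group had 1 library, and whether several mice were pooled in it was not stated. No difference below has a replicate check, and each p-value compares 2 libraries and not 2 conditions. The libraries held 3784539 (IR), 3844133 (Sham) and 5064014 (WI) microRNA reads. The hepatocyte microRNA miR-122-5p had 15364 to 18999 counts per 1000000 reads (CPM) in them. The 4 listed hepatocyte microRNAs summed to between 259963 and 285072 CPM.

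MicroRNAs guide Argonaute proteins to messenger RNAs by base pairing, mainly through the seed, which is bases 2 to 8 counted from the 5′ end. The miR-15/16 family is known for repressing cell cycle and survival genes, among them cyclins and Bcl2, and miR-15a and miR-16-1 lie in a region that is often deleted in chronic lymphocytic leukemia. Its members are expressed in most tissues, liver included. A hairpin usually yields a main arm, which is loaded, and a passenger arm, which is mostly degraded. Since the 5p arms share a seed, they can pair with largely the same sites. The comparisons asked how this family's arms differed after ischemia and after blood had returned.

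The mature sequences, taken from the RefSeq table of the GRCm38.p6 assembly, are shown first for the 4 member 5p arms, because the shared seed defines the family. The seed is in capitals.
mmu-miR-16-5p: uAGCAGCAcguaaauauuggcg
mmu-miR-15a-5p: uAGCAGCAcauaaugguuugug
mmu-miR-15b-5p: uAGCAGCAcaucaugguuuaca
mmu-miR-195a-5p: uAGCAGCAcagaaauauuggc
All 7 members were found in that table. The 4 5p arms were 21 or 22 bases long and began with U. MiR-16-5p and miR-195a-5p differed over their shared 21 bases by G10A and U11G, where the base of miR-16-5p comes first and positions count from 1 at the 5′ end. MiR-15a-5p and miR-15b-5p differed by A12C, G20A, U21C and G22A. MiR-16-5p and miR-15b-5p, the least alike, differed at 8 positions. No pair differed before position 10. The table held 10 microRNAs with this seed, all of them listed in the counts, and 6 of the 10 had a read in some library.

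The member 3p arms are shown because their seeds, again in capitals, differ from the 5p seed and from each other.
mmu-miR-15b-3p: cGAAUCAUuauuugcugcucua
mmu-miR-16-1-3p: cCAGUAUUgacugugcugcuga
mmu-miR-16-2-3p: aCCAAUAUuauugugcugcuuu
A read of miR-16-5p can come from either miR-16 hairpin. The hairpins are shown with the 5p arm (first) and the 3p arm (second) in capitals. The 5p arm is the same in both, while the 3p arms have the seeds CAGUAUU in Mir16-1 and CCAAUAU in Mir16-2.
Mir16-1: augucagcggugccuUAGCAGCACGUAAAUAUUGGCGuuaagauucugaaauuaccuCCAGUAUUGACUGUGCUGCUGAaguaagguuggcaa
Mir16-2: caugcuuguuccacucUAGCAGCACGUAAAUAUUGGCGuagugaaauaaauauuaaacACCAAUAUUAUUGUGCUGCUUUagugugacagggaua

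The members come from 3 places in the genome, given here by match of the hairpins to the NCBIM37 (mm9) assembly and its GENCODE annotation. Mir15b (chr3:68813694-68813757, plus strand) and Mir16-2 (chr3:68813824-68813918, plus strand) lie 66 bases apart in an intron of Smc4, which encodes a subunit of condensin. Mir16-1 (chr14:62250717-62250809, minus strand) and Mir15a lie in an intron of the long noncoding RNA Dleu2. For Mir15a no hairpin was in the table, and the stretch from the first to the last mature base (chr14:62250875-62250933, minus strand) was placed instead, 65 bases from Mir16-1. Mir195a (chr11:70048544-70048637, plus strand) overlapped no other annotated gene and lies 241 bases from Mir497 (chr11:70048219-70048302, plus strand), whose 5p arm has the same seed. Neighbours of a cluster are made from a common primary transcript.

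Levels are given as CPM of library totals after scaling by the trimmed mean of M-values method (TMM), with 95% exact intervals that cover counting error only. The 4 5p arms stood in the same order in all 3 libraries. MiR-16-5p had 41970 reads in Sham, 47231 in WI and 41673 after IR, which were 10598 (10497 to 10700), 9708 (9621 to 9796) and 10898 (10793 to 11003) CPM. It ranked 15th, 16th and 15th among all microRNAs of these libraries. MiR-15a-5p had 2600, 3676 and 2381 reads in the same order, or 657 (632 to 682), 756 (731 to 780) and 623 (598 to 648) CPM. MiR-195a-5p had 789, 744 and 686 reads, or 199 (186 to 214), 153 (142 to 164) and 179 (166 to 193) CPM. MiR-15b-5p was the least abundant of the 5p arms, with 448, 532 and 536 reads, or 113 (103 to 124), 109 (100 to 119) and 140 (129 to 153) CPM. Within each library the intervals of these neighbours in the order did not overlap. The arms are nearly equal in length, but adaptor ligation favours some ends over others, so that the order is one of reads.

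The 3p arms were far lower, as passenger arms usually are. MiR-15b-3p had 72 reads in Sham, 90 in WI and 59 after IR, or 18.2 (14.2 to 22.9), 18.5 (14.9 to 22.7) and 15.4 (11.7 to 19.9) CPM. MiR-16-1-3p had 57, 82 and 26 reads, or 14.4 (10.9 to 18.6), 16.9 (13.4 to 20.9) and 6.80 (4.44 to 9.96) CPM. MiR-16-2-3p had the fewest, with 22, 17 and 17 reads, or 5.56 (3.48 to 8.41), 3.49 (2.04 to 5.59) and 4.45 (2.59 to 7.12) CPM. In Sham and in WI the intervals of miR-15b-3p and miR-16-1-3p overlapped, and in IR those of miR-16-1-3p and miR-16-2-3p did. All were above the level of 3 reads, which was 0.758 CPM in Sham, 0.617 in WI and 0.785 after IR.

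**Figure D1:**
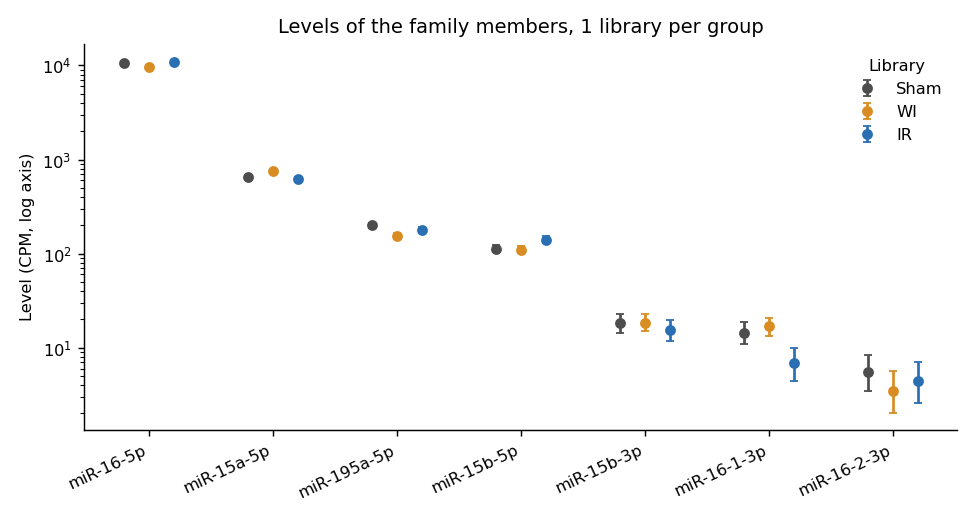
TMM-scaled CPM of the 7 members on a log axis in the Sham, WI and IR libraries (1 library per group), with bars for exact 95% counting intervals. MiR-16-5p lies between 9708 and 10898 CPM in the 3 libraries, the other 5p arms between 109 and 756 CPM, and miR-16-1-3p is lowest in IR at 6.80 CPM.

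A microRNA was called in a comparison when its fold change was above 1.5 and its unadjusted p in a two-sided Fisher's exact test was under 0.01, the criteria in the methods of the study. Log2 fold changes were taken on log2(CPM + 0.1), and their intervals are 95% exact intervals of the read ratio for counting error. No member was called in WI versus Sham, where 1.92% of the 782 microRNAs tested were called. In IR versus WI 1 of 7 members was called, against 9.25% of 789 microRNAs, and in IR versus Sham 1 of 7 was called, against 7.11% of 774. The member was miR-16-1-3p both times, lower in IR, and both comparisons use the IR library. The median log2 fold change of the 7 members was −0.05 in WI versus Sham, 0.17 in IR versus WI and −0.15 in IR versus Sham. Over all microRNAs tested it was 0.05, −0.01 and 0.04. Changes below the fold threshold often had small p-values at this depth. Among microRNAs that had 200 or more reads over both libraries, p was under 0.01 for 42.2% in WI versus Sham, 55.8% in IR versus WI and 51.0% in IR versus Sham, and 3, 4 and 2 of the 4 member 5p arms were among them.

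**Figure D2:**
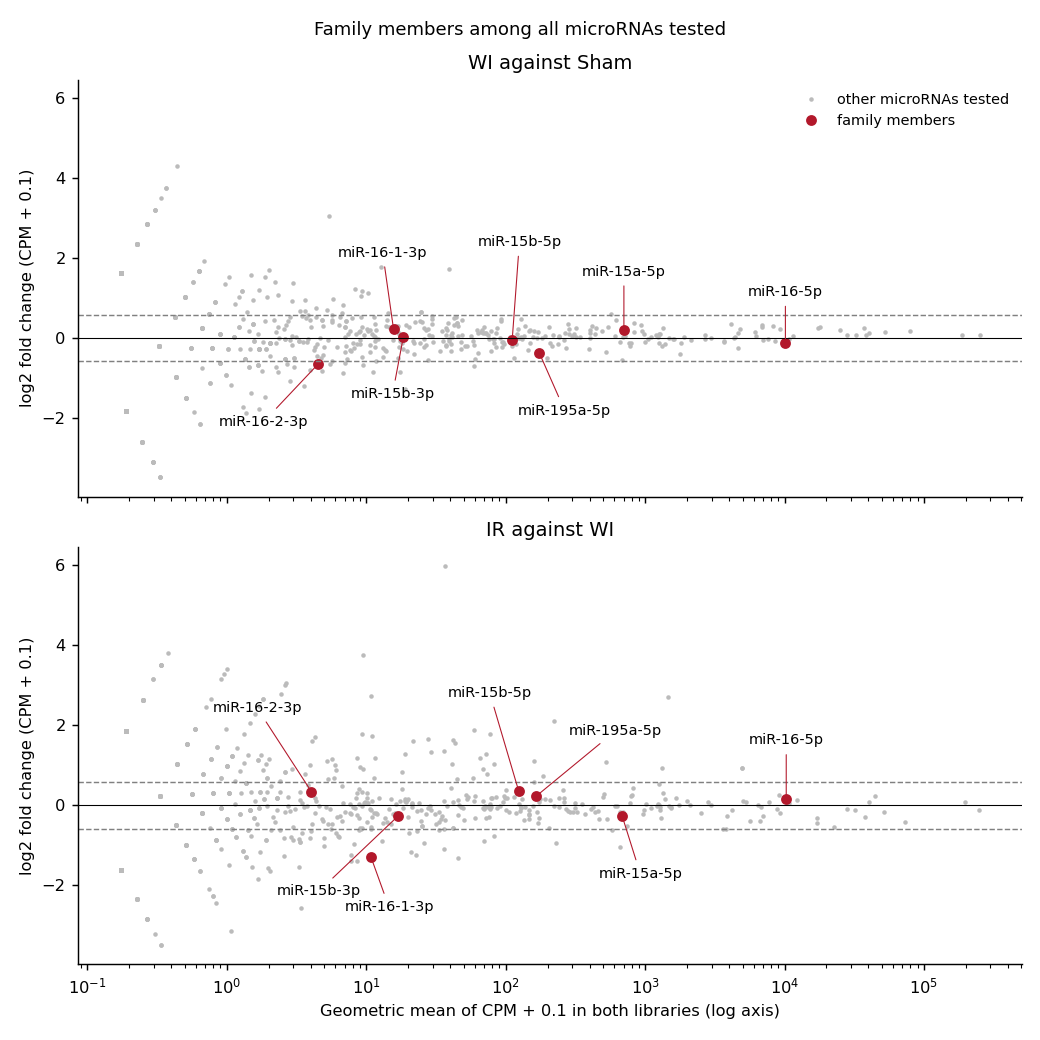
Log2 fold change of CPM + 0.1 against the geometric mean of CPM + 0.1 (log axis) for every microRNA tested, WI versus Sham above and IR versus WI below, with family members in red and dashed lines at a 1.5-fold difference. The 5p arms lie inside the dashed lines in both plots, and miR-16-1-3p lies below them in IR versus WI at −1.30.

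MiR-16-5p, the most abundant member, differed little between the libraries. Its log2 fold change was −0.13 in WI versus Sham (95% counting interval −0.15 to −0.11), 0.17 in IR versus WI (0.15 to 0.19) and 0.04 in IR versus Sham (0.02 to 0.06), and each of these took the other sign when reads were scaled to genome-aligned totals, as the last also did with totals without the 10 most abundant microRNAs. Fisher's exact p was 2.26e-39, 9.81e-67 and 5.18e-05, with 1 library per group. The last difference was 1.03-fold. MiR-16 is abundant in red blood cells, whose own microRNAs miR-451a, miR-144 and miR-486 were higher in IR. The 4 listed erythroid microRNAs summed to 5055 CPM in Sham, 4781 in WI and 9020 after IR, none was at 0, and all 4 were called higher in IR versus Sham and 3 of 4 in IR versus WI. MiR-451a, their defining member, had 1037 CPM in Sham, 959 in WI and 1838 after IR. The part of blood cells in the level of miR-16-5p was not tested. In liver tissue, a change in the number of cells of a type and a change of RNA per cell cannot be told apart.

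MiR-15a-5p was highest in WI. Its log2 fold change was 0.20 in WI versus Sham (0.13 to 0.28, Fisher's exact p = 3.83e-08), −0.28 in IR versus WI (−0.35 to −0.20, p = 1.38e-13) and −0.08 in IR versus Sham (−0.16 to 0.0042, p = 0.0633). The folds of 1.15, 1.21 and 1.05 were below the threshold for a call. With genome-aligned totals the difference between IR and WI was −0.60, which passed it. As a share of all microRNA reads, miR-15a-5p was 0.0676% in Sham, 0.0726% in WI and 0.0629% in IR. By this measure WI was still highest, but its differences from Sham and IR were smaller than with TMM. The hepatocyte microRNA miR-122-5p also had its highest level in WI, with 15960 CPM in Sham, 18999 in WI and 15364 after IR and log2 fold changes of 0.25 and −0.31 in WI versus Sham and IR versus WI. With TMM scaling, 3 of the 4 listed hepatocyte microRNAs were higher in WI versus Sham and 1, miR-194-5p, was lower (−0.05). All 4 were lower in IR versus WI with this scaling, and none was called in either comparison. As shares of all microRNA reads, only miR-122-5p was higher in WI than in Sham (1.83% and 1.64%). MiR-192-5p was lower (24.79% and 25.05%), as were miR-122-3p and miR-194-5p. By share, miR-194-5p was higher in IR than in WI (0.683% and 0.664%), while miR-122-5p and miR-192-5p were lower. MiR-122-3p was 0.108% in both. The endothelial miR-126a-5p was also highest in WI, with log2 fold changes of 0.28 in WI versus Sham and −0.44 in IR versus WI. Its other arm, miR-126a-3p, had −0.0022 and 0.017. The part of the hepatocyte share in the level of miR-15a-5p was not tested.

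MiR-15b-5p, the matching arm of the Smc4 cluster, was highest in IR. Its log2 fold change was −0.05 in WI versus Sham (−0.23 to 0.14, Fisher's exact p = 0.607), and this small value was 0.11 with genome-aligned totals. By the same exact test it was 0.36 in IR versus WI (0.18 to 0.53, p = 5.3e-05), or 0.03 with genome-aligned totals, and 0.31 in IR versus Sham (0.13 to 0.49, p = 0.000809). The folds of 1.28 in IR versus WI and 1.24 in IR versus Sham were not called. With TMM scaling, miR-15a-5p and miR-15b-5p thus had values of opposite sign in all 3 comparisons. Only in IR versus WI did the intervals of both leave out 0.

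MiR-195a-5p was lowest in WI, or in IR with genome-aligned totals. Its log2 fold change was −0.38 in WI versus Sham (−0.53 to −0.24, Fisher's exact p = 2.37e-07), a 1.30-fold difference that was not called, although it had the largest size among the 4 5p arms in any comparison under TMM scaling. In IR versus WI it was 0.23 (0.08 to 0.38, exact p = 0.00261), and −0.09 with genome-aligned totals. In IR versus Sham it was −0.15 (−0.30 to −0.0020, exact p = 0.0449). MiR-195a-5p is known in heart muscle for blocking the cell cycle of newborn cardiomyocytes.

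**Figure D3:**
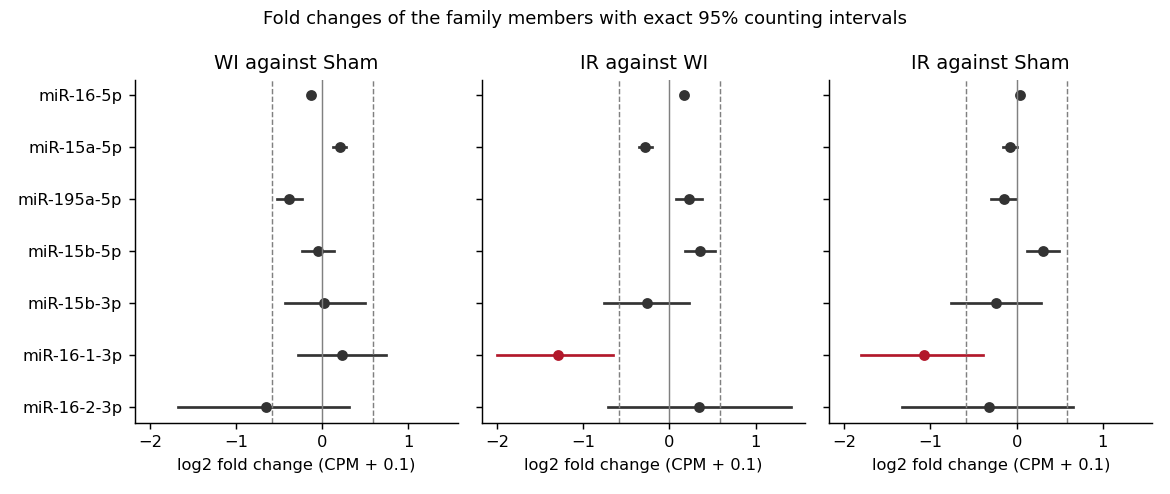
Log2 fold changes of the 7 members in the 3 comparisons, with bars for exact 95% counting intervals and the dashed lines at a 1.5-fold difference. MiR-16-1-3p lies below the lower line in IR versus WI (−1.30) and IR versus Sham (−1.07), while the intervals of the other 3p arms cross 0.

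MiR-16-1-3p, the passenger arm of the Dleu2 hairpin, fell in IR. From 82 reads in WI and 57 in Sham to 26 in IR, its log2 fold change was −1.30 in IR versus WI (−2.01 to −0.66, Fisher's exact p = 2.42e-05, adjusted p = 0.000197 over all microRNAs) and −1.07 in IR versus Sham (−1.81 to −0.39, p = 0.00132, adjusted p = 0.0094). These are folds of 2.46 and 2.10. In WI versus Sham it was 0.23 (−0.28 to 0.74, exact p = 0.394). The calls rest on counting error, and when edgeR's exact test was given a coefficient of variation of 0.2 between animals the p was 0.0152 in IR versus WI and 0.0559 in IR versus Sham, both above the threshold.

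The other 3p arms were not called. MiR-16-2-3p, from the Smc4 hairpin, had a log2 fold change of −0.65 in WI versus Sham (−1.67 to 0.31, p = 0.151), 0.34 in IR versus WI (−0.71 to 1.41, p = 0.494) and −0.32 in IR versus Sham (−1.33 to 0.66, p = 0.525), all by Fisher's exact test. With 17 to 22 reads these intervals include changes as large as that of miR-16-1-3p in IR versus Sham. MiR-15b-3p had values of 0.02 in WI versus Sham (−0.44 to 0.49, exact p = 0.937), which was −0.08 with unscaled library totals and also below 0 with DESeq2 size factors and without the 10 most abundant microRNAs, −0.26 in IR versus WI (−0.76 to 0.23, p = 0.285) and −0.24 in IR versus Sham (−0.76 to 0.28, p = 0.382). Differences of the size seen for the 5p arms were not detectable at this depth for any 3p arm.

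Shares between arms inside a library do not depend on how libraries are scaled to each other. They were therefore used to set the hairpins side by side, without a test. Of the reads of both miR-16 3p arms, miR-16-1-3p made up 57 of 79 in Sham (72.2%, 95% Clopper-Pearson interval 60.9 to 81.7), 82 of 99 in WI (82.8%, 73.9 to 89.7) and 26 of 43 after IR (60.5%, 44.4 to 75.02). The Dleu2 hairpin thus gave most of the 3p reads in Sham and in WI, while in IR the interval includes equal shares. The ratio of miR-16-1-3p to miR-16-2-3p was 4.82 in WI and 1.53 after IR, and the latter was 0.320 times the former (95% exact interval 0.132 to 0.770). Against Sham the interval of this change included 1 for WI (1.86, 0.855 to 4.09) and for IR (0.593, 0.251 to 1.40).

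The 5p arms of miR-15 showed the same order of libraries with many more reads. MiR-15a-5p made up 2600 of 3048 reads of both 5p arms in Sham (85.3%, 84.0 to 86.5), 3676 of 4208 in WI (87.4%, 86.3 to 88.3) and 2381 of 2917 after IR (81.6%, 80.2 to 83.0). WI was highest and IR lowest, and the interval of IR overlapped neither of the others. The ratio of miR-15a-5p to miR-15b-5p was 5.80 in Sham, 6.91 in WI and 4.44 after IR. It changed 1.19 times in WI versus Sham (1.04 to 1.37), 0.643 times in IR versus WI (0.563 to 0.734) and 0.765 times in IR versus Sham (0.666 to 0.880). None of these intervals included 1, and both comparisons with IR share that library. The 3p arms of miR-15 gave no such order. MiR-15a-3p was 19.1% of both miR-15 3p arms in Sham (11.5 to 28.8), 22.4% in WI (15.2 to 31.1) and 21.3% after IR (12.7 to 32.3), and its ratio to miR-15b-3p in IR was 0.939 times that in WI (0.431 to 1.998), an interval that also holds the value of the 5p arms.

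**Figure D4:**
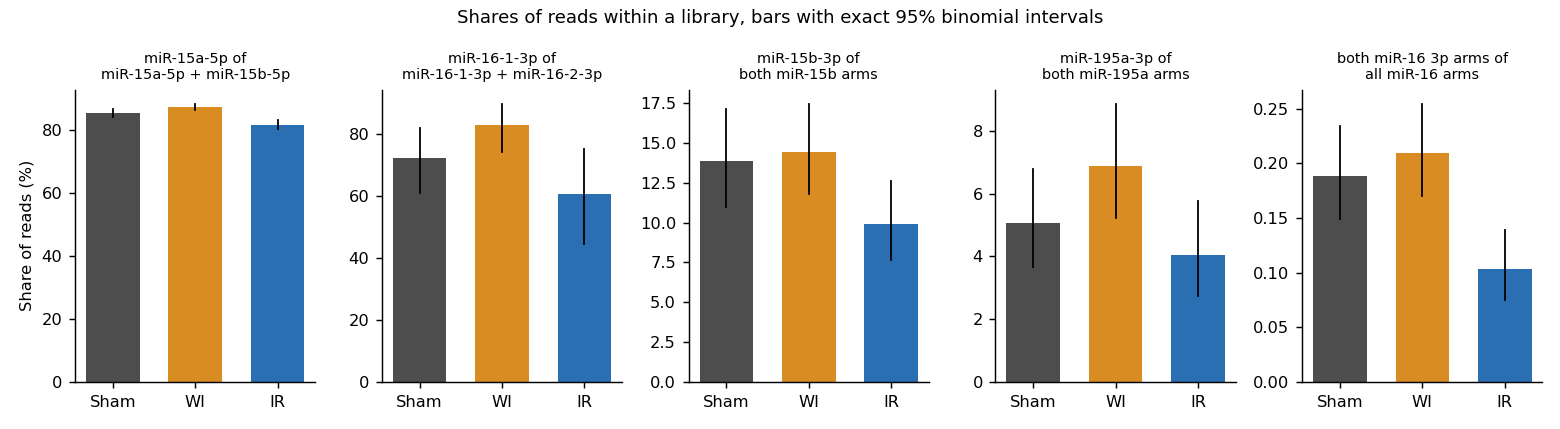
Shares of reads inside each library in percent, with 95% Clopper-Pearson intervals, for the Sham, WI and IR libraries. MiR-16-1-3p among both miR-16 3p arms and miR-15a-5p among both miR-15 5p arms are highest in WI (82.8% and 87.4%) and lowest in IR (60.5% and 81.6%).

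Summed without miR-16-5p, which both clusters make, the arms of the Dleu2 cluster (miR-15a-5p, miR-15a-3p and miR-16-1-3p) had 675 CPM in Sham, 778 in WI and 634 after IR. Those of the Smc4 cluster (miR-15b-5p, miR-15b-3p and miR-16-2-3p) had 137, 131 and 160 CPM. With TMM scaling the Dleu2 sum was highest in WI and the Smc4 sum in IR. Both sums are mainly their 5p arms. Against miR-16-5p, miR-15a-5p was 5.83% of the pair in Sham, 7.22% in WI and 5.40% after IR, and its ratio to miR-16-5p changed 1.26 times in WI versus Sham (1.19 to 1.32) and 0.734 times in IR versus WI (0.696 to 0.774). The ratio of miR-15b-5p to miR-16-5p was 1.14 times as high in IR as in WI (1.01 to 1.29). That of miR-195a-5p was 0.838 times its Sham value in WI (0.756 to 0.928), and in IR versus WI its interval included 1 (1.05, 0.940 to 1.16).

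The ratio of passenger to main arm was lower in IR than in WI beyond counting error for miR-16, miR-15b and miR-195a, and lower than in Sham beyond it for miR-16 alone among these. Both miR-16 3p arms together were 0.188% of all miR-16 reads in Sham (0.149 to 0.234), 0.209% in WI (0.170 to 0.255) and 0.103% after IR (0.0746 to 0.139), and the ratio in IR was 0.492 times that in WI (0.336 to 0.711) and 0.548 times that in Sham (0.369 to 0.805). Of the miR-16 3p arms, miR-16-1-3p had 82 reads in WI and 26 in IR, while miR-16-2-3p had 17 in both. MiR-15b-3p was 13.8% of both miR-15b arms in Sham (10.99 to 17.1), 14.5% in WI (11.8 to 17.5) and 9.92% after IR (7.63 to 12.6), with a ratio in IR that was 0.651 times that in WI (0.450 to 0.935) and 0.685 times that in Sham (0.466 to 1.004). MiR-195a-3p was 5.05% of both miR-195a arms in Sham, 6.88% in WI and 4.06% after IR, with a ratio 0.572 times as high in IR as in WI (0.347 to 0.925) and 0.794 times as high as in Sham (0.472 to 1.32). MiR-15a-3p was 0.650% of both miR-15a arms in Sham, 0.702% in WI and 0.668% after IR. Its ratio in IR was 0.9501 times that in WI (0.475 to 1.84). That interval also holds the changes of miR-16, miR-15b and miR-195a. The same share was counted over a wider set of hairpins, those of miR-15a, miR-15b and miR-195a included. Among 92 hairpins with at least 20 reads of each arm, a read of each arm in every library and a main arm at least 2 times as high, the passenger share was lower in IR than in WI for 57 (61.96%) and lower in IR than in Sham for 50 (54.35%). It was lower in WI than in Sham for 37 (40.22%). These counts hold the direction only, without an interval. They therefore cannot be set against the changes beyond counting error given above. These 92 hairpins were picked by criteria chosen after the values had been seen.

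All 4 member 5p arms together had 11567 CPM in Sham, 10726 in WI and 11840 after IR, or 1.19%, 1.03% and 1.196% of the microRNA reads. MiR-16-5p made up 91.6% of the sum in Sham (91.4 to 91.9), 90.5% in WI (90.3 to 90.8) and 92.0% after IR (91.8 to 92.3), so that the sum follows it. With all 10 microRNAs that have the seed, miR-16-5p still made up 89.7%, 88.5% and 90.0%. MiR-15a-5p was 5.68% of the 4 arms in Sham, 7.04% in WI and 5.26% after IR, miR-195a-5p was 1.72%, 1.43% and 1.52%, and miR-15b-5p was 0.978%, 1.02% and 1.18%. The 3 member 3p arms summed to 38.1, 38.8 and 26.7 CPM.

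Outside the 7 members, 14 relatives were looked up, namely the mates of the members' hairpins and clusters, the miR-322 and miR-503 arms, miR-1907 and the other microRNAs with the seed. Only miR-503-3p among them was called, in 1 comparison. MiR-497-5p, made next to miR-195a, had 306 reads in Sham, 366 in WI and 325 after IR, or 77.3, 75.2 and 85.0 CPM, and was called in no comparison. It was 27.9% of the reads of both 5p arms in Sham (25.3 to 30.7), 33.0% in WI (30.2 to 35.8) and 32.1% after IR (29.3 to 35.1), and its ratio to miR-195a-5p was 1.27 times as high in WI as in Sham (1.05 to 1.53). MiR-322-5p, the mouse counterpart of human miR-424, had 671, 817 and 713 reads, or 169, 168 and 186 CPM, between miR-15a-5p and miR-15b-5p in level in every library, and was not called. These have the family seed behind another first base.
mmu-miR-497a-5p: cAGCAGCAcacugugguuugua
mmu-miR-322-5p: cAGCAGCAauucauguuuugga
The first of these is listed in the counts as miR-497-5p. MiR-195b, miR-6342, miR-6353 and miR-6419, which also have the seed, had 0 reads in every library, as did miR-497b and miR-1907. A count of 0 was taken to allow up to the level of 3 reads, which is 0.758 CPM in Sham, 0.617 in WI and 0.785 after IR. Among the arms with other seeds, miR-503-3p, from the cluster of miR-322, was called higher in IR versus WI with 11 and 27 reads, a log2 fold change of 1.60 and a Fisher's exact p of 0.00091, while it had 15 reads in Sham. The other arm, miR-503-5p, had 1, 2 and 2 reads. MiR-322-3p had 405, 451 and 402 reads and was not called.

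Scaling to genome-aligned totals moved the median of all microRNAs tested to 0.20 in WI versus Sham, −0.32 in IR versus WI and −0.09 in IR versus Sham, and the member values moved by nearly the same amounts. MiR-16-1-3p was −1.59 in IR versus WI and −1.21 in IR versus Sham with these totals, and it was called under each of the 5 scalings in both comparisons.

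**Figure D5:**
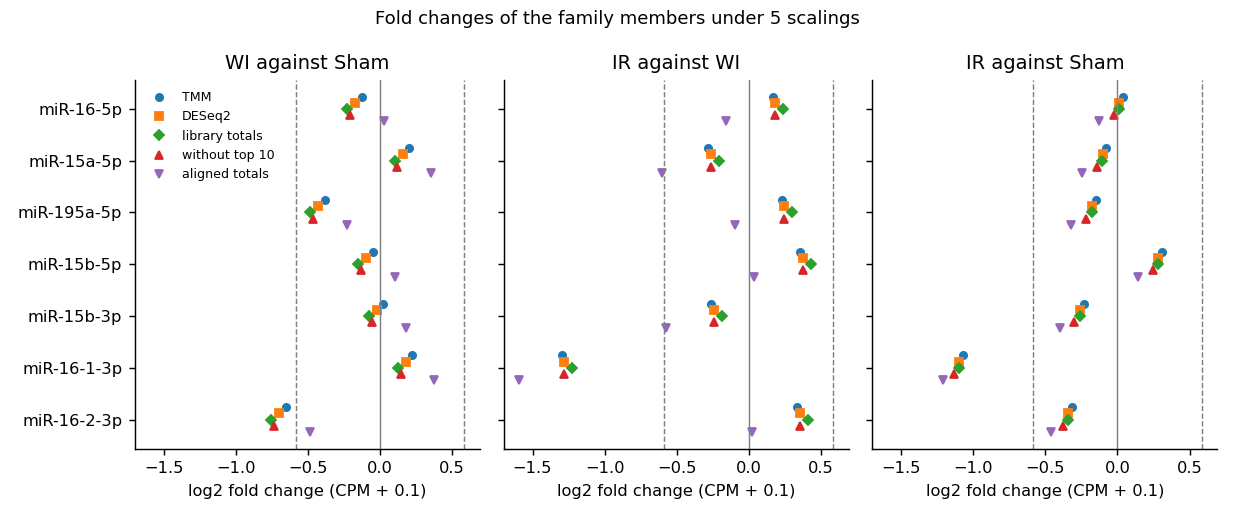
Log2 fold changes of CPM + 0.1 of the 7 members in each comparison under TMM and 4 other scalings of the libraries, with dashed lines at a 1.5-fold difference. MiR-16-1-3p stays below the lower line in both comparisons with IR under all 5 scalings, while miR-16-5p takes the other sign in all 3 comparisons with genome-aligned totals and in IR versus Sham without the 10 most abundant microRNAs.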

How the data were processed

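Small RNA libraries of mouse liver were sequenced on an Illumina instrument after gel size selection, adaptor ligation and PCR without molecular identifiers. The authors deposited counts of reads for each mature microRNA, with no normalisation. The authors trimmed adaptors, dropped low-quality reads, selected lengths, aligned with Bowtie 0.12.7, sorted alignments into RNA classes with HTSeq without strand and counted with miRDeep2. The methods of the study give mm9 as the genome for small RNA, the submitters' processing notes mm10. The counts carry no coordinates. A read that matches 2 nearly identical microRNAs may be entered under both, and miR-486-5p had nearly the reads of miR-3107-5p. MiR-16-5p from both hairpins is 1 entry.

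Groups came from the sample titles. Counts were scaled by TMM factors (1.03 for Sham, 0.961 for WI and 1.01 for IR) from edgeR 4.0.16 in R 4.3.3. Fisher's exact test, two-sided, was run on reads and scaled totals (scipy 1.17.1) for each microRNA that had a read in 1 or both libraries, and adjusted p-values are Benjamini-Hochberg values over all microRNAs tested. Intervals are at 95%, were computed on reads without the pseudocount of 0.1 CPM, and cover counting error only. Ratio changes between libraries carry exact conditional odds ratio intervals. The quasi-likelihood test of edgeR could not be fitted with 1 library per group. The Fisher calls were checked on simulated counts that held counting error only. That check cannot speak to variation between animals or libraries. Alternatives changed the scaling (DESeq2 1.42.0 among them), the pseudocount, the read minimum, the thresholds, the depth and the test.

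The members, the relatives and the marker lists (hepatocyte, erythroid, leukocyte, endothelial and muscle) were chosen with earlier results of these data known. Named were all 7 members, their hairpin and cluster mates, microRNAs with the same seed, the marker lists, and the 3 microRNAs nearest in pattern to each member. The hairpins for the passenger arm comparison, miR-3107-5p and miR-223-5p were chosen after their values were seen.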

Additional observations from a re-analysis of the deposited data

How the results depend on the processing

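Each member's 3 comparisons were repeated under 14 alternatives. Of the values, 279 kept their direction and their side of the threshold, 10 took the other sign, 4 lost the call and 1 gained it. Alternatives that changed only the read minimum, the thresholds or the test left the fold changes as they were. Under those only the call could change, so the count of kept directions is in part fixed in advance. The lost calls were those of miR-16-1-3p. With edgeR's exact test and an assumed coefficient of variation of 0.2 or 0.4, 0 members were called in IR versus WI and 0 in IR versus Sham, in place of 1 each, while with 0.1 the calls were kept (p = 0.000484 and 0.00896, edgeR's exact test). At 0.2 the table of all microRNAs held 33 and 24 calls, and at 0.4 it held 6 and 10, in place of 73 and 55. With genome-aligned totals 2 members were called in IR versus WI, the added one being miR-15a-5p at −0.60. Under these totals miR-16-5p was 0.029 in WI versus Sham, −0.16 in IR versus WI and −0.13 in IR versus Sham, miR-15b-5p was 0.11 in WI versus Sham, and miR-195a-5p was −0.094 in IR versus WI. MiR-16-5p was −0.024 in IR versus Sham without the 10 most abundant microRNAs. MiR-15b-3p in WI versus Sham was −0.020 with DESeq2 size factors, −0.075 with library totals, −0.057 without the 10 most abundant and −0.0062 after thinning. The summed 4 5p arms in WI versus Sham were at −0.11 with TMM, −0.15 with DESeq2 size factors, −0.21 with library totals, −0.19 without the 10 most abundant, 0.047 with genome-aligned totals and 0.071 without miR-16-5p. In IR versus WI they were at 0.14, and at 0.16 with DESeq2 size factors, 0.22 with library totals, −0.18 with genome-aligned totals and −0.11 without miR-16-5p. In IR versus Sham they were at 0.034, and at 0.0074, 0.0057, −0.031, −0.13 and −0.040 in the order given for WI versus Sham. Calls over all microRNAs were 11 higher and 4 lower in WI versus Sham with TMM, while library totals gave 7 and 10 and genome-aligned totals 23 and 2. In IR versus WI they were 49 and 24 with TMM and 38 and 73 with genome-aligned totals, and in IR versus Sham 44 and 11 and then 35 and 27. The cause of these shifts was not tested. The shares inside a library need no scaling. Leaving out a replicate was not possible with 1 library per group, and the 3p arms are limited by 17 to 90 reads.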

Other observations

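The microRNAs nearest in pattern to the main arms, by the distance between log2 fold changes in WI versus Sham and IR versus Sham over 3 libraries, are a description only. Among 227 microRNAs with at least 200 reads, miR-322-3p was nearest to miR-16-5p, at a distance of 0.015, followed by miR-199a-5p (0.029) and miR-200b-3p (0.036). Nearest to miR-15a-5p were miR-28a-3p (0.030), miR-152-5p (0.032) and let-7d-5p (0.035). For miR-195a-5p miR-99a-5p was close, at 0.027, with log2 fold changes of −0.36 in WI versus Sham and −0.14 in IR versus Sham, while miR-130b-3p (0.11) and miR-532-5p (0.16) lay farther away. MiR-15b-5p had no neighbour nearer than miR-1198-5p (0.12), followed by miR-191-5p and miR-17-5p (both 0.15). MiR-15b-3p was nearest to miR-1839-5p (0.025), miR-30c-2-3p (0.038) and miR-872-5p (0.046). The counting standard errors of its log2 fold changes, 0.23 in WI versus Sham and 0.25 in IR versus Sham, were larger than these distances. MiR-16-1-3p stood farthest from any other, with miR-32-5p at 0.39, miR-802-5p at 0.43 and miR-30d-3p at 0.44. The standard error of its log2 fold change from counting was 0.25 in WI versus Sham and 0.34 in IR versus Sham. These are close in size to its distances. MiR-16-2-3p was nearest to miR-342-3p (0.14), miR-1843a-3p (0.16) and miR-130b-3p (0.26). Its standard error from counting was 0.47 in WI versus Sham and in IR versus Sham, larger than these distances. Both miR-16 3p arms themselves had fewer than 200 reads over the 3 libraries and were set against 228 microRNAs. Of these 21 pairs, 14 remained with a minimum of 1000 reads.

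Some markers of other cell types also differed between the libraries. The 4 leukocyte microRNAs summed to 3074 CPM in Sham, 3037 in WI and 2792 after IR. Of these, miR-223-3p, a microRNA of neutrophils, was called higher in IR against both other libraries, with 110, 109 and 236 CPM in the order Sham, WI, IR. The other 3 were lower in IR versus WI, with log2 fold changes of −0.36 for miR-142-3p, −0.19 for miR-142-5p and −0.13 for miR-150-5p, none called. In IR versus Sham these were 0.11, −0.22 and −0.32. The other arm of miR-223, miR-223-5p, was not in the list. It had 39 reads in Sham and 22 in IR, a log2 fold change of −0.77 that was not called. Both endothelial microRNAs, which are the arms of miR-126a, summed to 19267, 22783 and 17568 CPM, with none called. Most of this sum was miR-126a-5p, while miR-126a-3p was nearly level at 2956, 2951 and 2985 CPM. The 3 muscle microRNAs summed to 6.82, 23.8 and 75.1 CPM, almost all of it miR-133a-3p, which was called higher in WI than in Sham and in IR than in Sham. The other members of this list were nearly absent. MiR-1a-3p had 0, 1 and 6 reads in Sham, WI and IR, and miR-206-3p had 0, 0 and 1. The part of these cell types in the levels of the family members was not tested.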
